A study of Macaca mulatta with 4 samples.

Results

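HIF-1α peaks on chromosome 20 of the rhesus macaque were examined in chromatin immunoprecipitation and sequencing (ChIP-seq) data from infarcted heart. All peaks named on chromosome 20 in either deposited list were taken, which gave 503 of 20750 peaks, 307 of 13351 at 6 h and 196 of 7399 at 4 weeks. Chromosome 20 was selected on its peak counts: it had the lowest ratio of 6 h to 4-week peaks of the 20 numbered chromosomes, together with a high part called at both times. That ratio was 1.57 on chromosome 20, and the next lowest was 1.69 on chromosome 8. These values chose the chromosome and are given as description only.

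The series is about how copper regulates HIF-1, and its animals were male rhesus monkeys given a myocardial infarction by ligation of the LAD, the artery that feeds the front wall of the left ventricle. Heart tissue was taken 6 h or 4 weeks later, frozen, ground and fixed with formaldehyde. At each time there was 1 library precipitated with an anti-HIF-1α antibody and 1 input library without antibody. No uninfarcted heart was analysed here, so both groups carry the infarct, and the sources used here do not say how many animals stand behind a library. Whole tissue was used, so the binding of different cell types is mixed and a site bound in fewer cells and one bound less per cell cannot be told apart.

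HIF-1 is a transcription factor made of the oxygen-regulated subunit HIF-1α and the stable subunit HIF-1β. When oxygen is short, HIF-1α escapes breakdown, enters the nucleus and binds DNA at short hypoxia response elements, where it turns on genes for glycolysis, vessel growth and oxygen supply. Copper is known to be needed for HIF-1 to activate some of its targets. Metallothioneins are small cysteine-rich proteins that bind copper and zinc, and their genes stand together on rhesus chromosome 20. A fixed list of 28 genes was drawn up for naming genes on this chromosome, so the number found there is no finding. A gene table of the assembly T2T-MMU8v2.0 placed 27 of the 28 on it. These included 6 of 7 metallothionein genes, with MT4, MT3 and MT2A next to one another, the glycolytic enzyme gene ALDOA, the HIF coactivator gene CREBBP, the ubiquitin ligase gene SIAH1, which acts on the enzymes that mark HIF-1α for breakdown, and the α-type globin genes HBZ, HBM and HBA. MT1F had no entry. The peak lists are not stated to be on that assembly, so no peak was assigned to a gene, and whether any of these genes has a peak was not analysed here.

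Chromosome 20 was rich in HIF-1α peaks for its length. At 6 h it had 4.10 peaks per Mb (exact Poisson 95% interval 3.65 to 4.58), rank 4 of 20 chromosomes by density. At 4 weeks it had 2.62 per Mb (2.26 to 3.01), rank 3 of 20. Over chromosomes 1 to 19 together the densities were 3.05 and 1.50 per Mb. Chromosomes 16 and 19, the densest at 4 weeks and so the nearest in kind, had 5.34 and 6.57 peaks per Mb at 6 h and 2.85 and 3.81 at 4 weeks. Chromosome 20 thus lay below both at 6 h, while at 4 weeks its interval included the value of chromosome 16. Called peaks covered 91.9 kb of the chromosome at 6 h and 58.2 kb at 4 weeks. The length used for chromosome 20 was 74.9 Mb, the end of its last called peak, and the true length can only be larger. Intervals reflect counting error alone and take the peaks to be independent of one another. With 1 ChIP library per time point nothing could be tested between times, and no difference below has a replicate check.

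HIF-1α peaks were spread very unevenly along the chromosome. The first 5 Mb held 60 peaks at 6 h and 52 at 4 weeks, or 12 and 10.4 per Mb. In the remaining 69.9 Mb there were 247 and 144 peaks, or 3.53 and 2.06 per Mb. The first 5 Mb therefore carried 19.5% of the 6 h peaks of chromosome 20 (95% interval 15.3 to 24.4%) and 26.5% of its 4-week peaks (20.5 to 33.3%). Over chromosomes 1 to 20 the same stretch carried 7.30% of 6 h peaks and 9.85% of 4-week peaks. Part of this gap follows from length, since 5 Mb is a larger part of a short chromosome. In number of peaks per stretch of 5 Mb, where length plays no part, the start of chromosome 20 ranked 2 of 20 at both times, after the start of chromosome 17 at 6 h (74 peaks) and that of chromosome 19 at 4 weeks (57 peaks). The last 5 Mb of chromosome 20 had 29 peaks at 6 h and 21 at 4 weeks, or 5.8 and 4.2 per Mb. In the last 5 Mb of chromosomes 1 to 19 the densities were 5.47 and 3.37 per Mb. Both ends together held 29.0% of 6 h peaks (24.0 to 34.4%) and 37.2% of 4-week peaks (30.5 to 44.4%), against 14.0% and 18.2% over chromosomes 1 to 20. Chromosome 19, which is shorter, had 27.6% and 38.2% there, and chromosome 16 had 20.1% and 27.3%, so chromosome 20 was not alone in this.

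Between the ends the peaks of both times gathered in the same broad zones. The window from 25000001 to 30000000 had 36 peaks at 6 h and 18 at 4 weeks, and that from 50000001 to 55000000 had 39 and 20. Other windows were nearly empty, with 7 and 6 peaks from 5000001 to 10000000 and 3 and 3 from 45000001 to 50000000. Of the 15 windows of 5 Mb, 14 had more 6 h peaks and 1 had equal numbers. The part of peaks that came from the 4-week list went from 20% in the window that starts at 60000001, which held only 10 peaks, to 50% in the one that starts at 45000001, which held 6. Its median over windows was 39.4%.

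**Figure D1:**
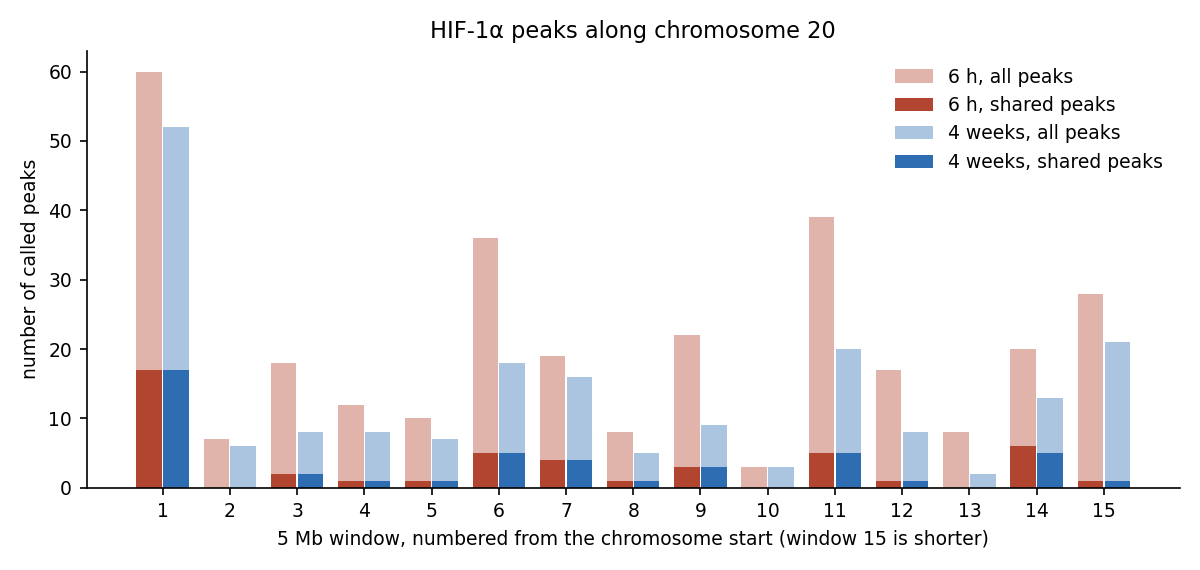
Number of called HIF-1α peaks (vertical axis) in 15 windows of 5 Mb numbered from the start of chromosome 20 (horizontal axis), for 6 h in red and 4 weeks in blue; the dark part of each bar is the number of peaks that overlap a peak of the other time. The first window holds 60 and 52 peaks, of which 17 in each list are shared, and windows 6 and 11 are the next highest at 6 h.

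Among windows of 1 Mb, 4 of the first 5 were among the 6 richest of the whole chromosome. The window from 2000001 to 3000000 had 17 peaks at 6 h and 9 at 4 weeks, and that from 4000001 to 5000000 had 15 and 11. The first 1 Mb had 9 at 6 h and 14 at 4 weeks, one of 15 windows with more 4-week peaks. The next window, from 1000001, had 12 and 11. The other 2 rich windows were inside the chromosome, from 28000001 (13 and 9) and from 51000001 (14 and 8). Of all 75 windows, 52 had peaks at both times, 14 had only 6 h peaks, 3 had only 4-week peaks and 6 had none. The longest stretch without a peak at either time ran from 6414830 to 8534747 (2.12 Mb), just after the dense start. The next 4, from 44834999 to 46342860, 60031466 to 61537706, 24384402 to 25855836 and 42961217 to 44383326, were 1.42 to 1.51 Mb long. Whether these stretches hold gaps of the assembly or sequence to which reads cannot be mapped was not analysed here.

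The balance between the times was then followed along the chromosome. Of all peaks on chromosome 20, 39.0% came from the 4-week list (34.7 to 43.4%), against 33.0% on chromosomes 1 to 19. In the first 5 Mb the 4-week part was 46.4% (37.0 to 56.1%), against 39.4% (36.2 to 42.7%) in the first 5 Mb of chromosomes 1 to 19, and in the last 5 Mb it was 42.0% (28.2 to 56.8%). Between the ends it was 36.1% (31.0 to 41.4%), and the intervals of the 3 zones overlap, so a difference along the chromosome was not established. The interval of the first 5 Mb also includes the value of that stretch on chromosomes 1 to 19. With the first 5 Mb left out everywhere, it was 36.8% on chromosome 20 (32.0 to 41.8%), an interval that includes the 32.5% on chromosomes 1 to 19. The start of chromosome 19 went further, with 46 peaks at 6 h and 57 at 4 weeks, while that of chromosome 16 had 40 and 22. The rule that chose chromosome 20 used this balance, so its size over the chromosome is no finding.

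The second question is which sites were called at both times, where a peak counts as shared if at least 1 bp of it lies in a peak of the other list. Shared peaks on chromosome 20 numbered 47 of 307 at 6 h (15.3%, 11.5 to 19.8%) and 46 of 196 at 4 weeks (23.5%, 17.7 to 30.04%). The background over chromosomes 1 to 20 was 8.54% of 6 h peaks and 17.2% of 4-week peaks. On chromosome 16 the parts were 8.98% and 16.4%, and on chromosome 19 they were 8.52% and 15.2%. With a reciprocal overlap of 50% required, 7.82% and 12.2% of the peaks of chromosome 20 were shared, against 4.29% and 8.71% on chromosomes 1 to 19. In the widest 50% of each list 12.3% of 6 h peaks and 15.4% of 4-week peaks were shared on chromosome 20, against 8.57% and 15.1%. In this setting a peak counts as shared only if its partner is also among the widest 50% of its list. It therefore does not give the sharing of wide 4-week peaks with all 6 h peaks. Since high sharing was part of the reason for choosing chromosome 20, these shares are a description.

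Where along the chromosome the shared sites lay was not part of that choice, but how its zones stand beside those of other chromosomes was, and those values are given as description. The first 5 Mb held 17 of the 47 shared 6 h peaks, so that 28.3% of its 6 h peaks (17.5 to 41.4%) and 32.7% of its 4-week peaks (20.3 to 47.1%) were shared. Of the 17 pairs there, 12 lay in the first 3 Mb. With a reciprocal overlap of 50% the 4-week share there was 13.5% (5.59 to 25.8%), and in the widest 50% of each list it was 15.8% (6.02 to 31.3%). In the first 5 Mb of chromosomes 1 to 19, 10.7% of 6 h peaks (8.24 to 13.6%) and 17.0% of 4-week peaks (13.3 to 21.4%) were shared, and no other chromosome had more than 8 shared 4-week peaks there. The last 5 Mb of chromosome 20 had only 1 shared pair, which was 3.45% of 29 6 h peaks (0.0873 to 17.8%) and 4.76% of 21 4-week peaks (0.120 to 23.8%). That pair lay at 74851658 to 74851953 at 6 h and 74851701 to 74852060 at 4 weeks. Between the ends 13.3% of 6 h peaks (9.09 to 18.5%) and 22.8% of 4-week peaks (15.7 to 31.2%) were shared, against 7.83% and 16.6% on chromosomes 1 to 19. The last 5 Mb was thus less dense than the first and had a lower part called at both times. With so few peaks the intervals of the shared parts of the 2 ends still overlap at both times. Counted over chromosome 20 without its first 5 Mb, 12.1% of 6 h peaks (8.35 to 16.9%) and 20.1% of 4-week peaks (13.9 to 27.6%) were shared, against 8.09% and 16.9% elsewhere.

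**Figure D2:**
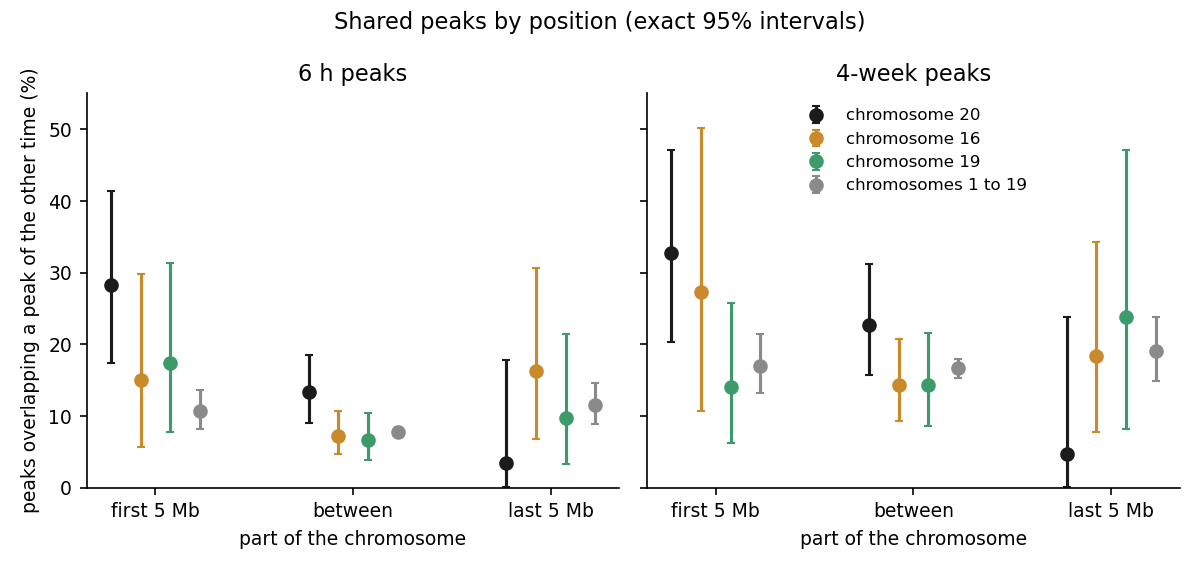
Part of 6 h peaks (left) and 4-week peaks (right) that overlap a peak of the other time, in percent, for the first 5 Mb, the last 5 Mb and the sequence between on chromosome 20, chromosome 16, chromosome 19 and chromosomes 1 to 19 together. Points are shares and bars are exact 95% intervals; on chromosome 20 the share is 28.3% at 6 h in the first 5 Mb and 3.45% in the last 5 Mb.

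The 47 overlapping pairs were built from 47 peaks at 6 h and 46 at 4 weeks, because the widest 4-week peak of the chromosome, at 65666639 to 65667458 (820 bp), overlapped a pair of 6 h peaks at 65666391 to 65666734 (344 bp) and 65666964 to 65667174 (211 bp). Farther on, the 6 h peak at 65699203 to 65700094 (892 bp) overlapped a 4-week peak of 357 bp at 65699788 to 65700144. The pair with the largest summed width was in the dense start, a 6 h peak at 1765750 to 1766770 (1021 bp), the widest of the chromosome at that time, with a 4-week peak at 1766440 to 1766769 (330 bp) wholly inside it. In the same stretch the 6 h peak at 2154688 to 2155434 (747 bp) held the 4-week peak at 2154998 to 2155254 (257 bp). A 6 h peak at 4619912 to 4620665 (754 bp) overlapped a 4-week peak at 4620496 to 4620718 (223 bp) by 170 bp. At 2571566 to 2572127 the order was turned, with a 4-week peak of 562 bp around a 6 h peak of 246 bp at 2571591 to 2571836. At 3498498 to 3499016 a 6 h peak of 519 bp met a 4-week peak of 282 bp at 3498873 to 3499154.

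The remaining pairs among the 12 of largest summed width lay inside the chromosome and were all wider at 6 h. They were at 10988235 to 10988765 (531 bp at 6 h, 340 bp at 4 weeks), 26104828 to 26105461 (634 and 327 bp), 28211796 to 28212419 (624 and 199 bp) and 59539550 to 59540179 (630 and 214 bp), with positions given for the 6 h peak. In 9 of the 12 pairs the 6 h peak was the wider one. The sequences under these peaks are not printed, since no genome of the build of the files was at hand.

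The width of a peak at one time said little about the width of its partner. Across the 47 pairs, which share 2 libraries and in 1 case a peak, the widths had a Spearman rho of -0.09, beside 0.11 over 665 pairs on chromosomes 1 to 19. A peak of at least 400 bp, a bound chosen after the widths were seen, was present in 22 pairs, at 6 h in 14 of them and at 4 weeks in 8. The partners of these peaks were up to 357 bp wide, so in 0 of the 22 pairs (limit 13.6%) did both peaks reach 400 bp. On chromosomes 1 to 19 both did in 83 of 341 such pairs (24.3%, 19.9 to 29.3%). It was 4 of 20 on chromosome 16 and 1 of 12 on chromosome 19. As the bound was chosen on these widths, the values are description only.

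The wider peak was from 6 h in 22 pairs, from 4 weeks in 22, and 3 pairs had equal widths. The 6 h peak was thus wider in 46.8% of pairs (32.1 to 61.9%), against 53.8% (49.96 to 57.7%) on chromosomes 1 to 19. In the first 5 Mb the 4-week peak was wider in 11 of 17 pairs, with medians of 259 bp at 6 h and 306 bp at 4 weeks. Elsewhere the 6 h peak was wider in 16 of 30 pairs and the 4-week peak in 11.

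Measured against the narrower peak, overlaps were mostly large. The median overlap was 199 bp and covered a median of 93.5% of the narrower peak, and in 17 pairs the narrower peak was wholly inside the wider. Only 4 pairs overlapped by under 50% of the narrower peak. A narrow peak inside a wide one scores high in this measure. With a reciprocal overlap of 50%, only 24 peaks of each list stayed shared. The centres of paired peaks were a median of 75 bp apart, and 26 of 47 pairs had centres within 100 bp. The 6 h centre lay at the lower position in 30 pairs and at the higher in 17, and in the first 5 Mb it was lower in 13 of 17. The closest case to either side of the overlap rule was a pair overlapping by 22 bp and a pair not overlapping that was 163 bp apart, at 28942137 to 28942383 (6 h) and 28942547 to 28942763 (4 weeks).

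**Figure D3:**
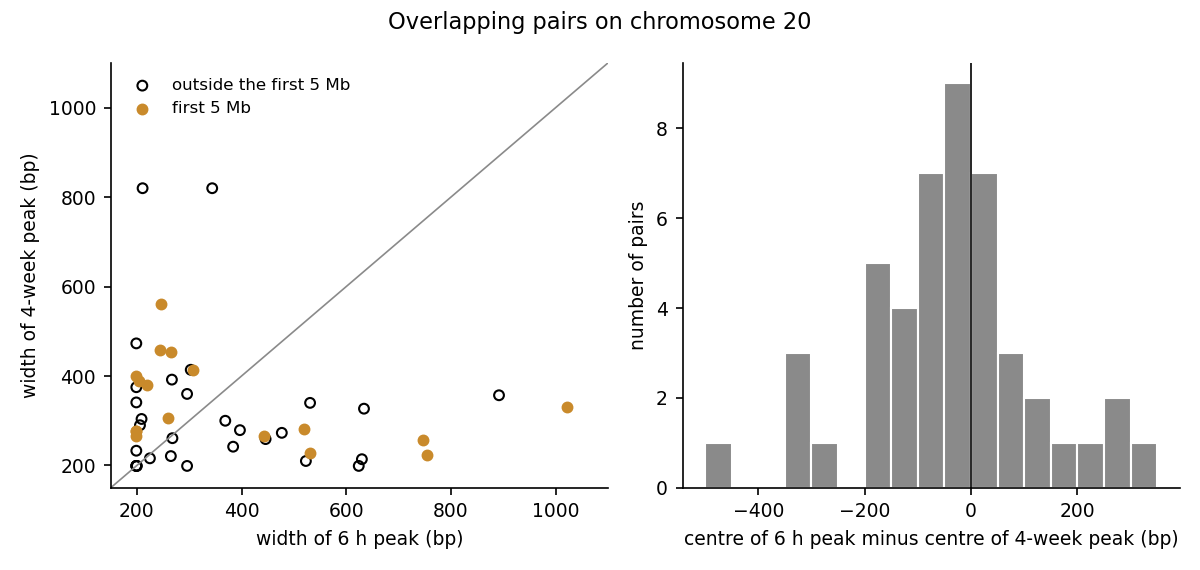
Left, width of the 4-week peak against width of the 6 h peak in bp for the 47 overlapping pairs on chromosome 20, with the line of equal width; filled points lie in the first 5 Mb. Right, number of pairs by the distance of the 6 h centre from the 4-week centre in bp; the partners of peaks of at least 400 bp are up to 357 bp wide, and 26 pairs have centres within 100 bp.

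Peak widths on chromosome 20 were much like those on other chromosomes. The median was 256 bp at 6 h (quartiles 201 and 333 bp, range 199 to 1021 bp) and 273 bp at 4 weeks (quartiles 216 and 360 bp, range 199 to 820 bp). Over chromosomes 1 to 19 the medians were 253 and 260 bp. The median's 95% interval on chromosome 20 was 240 to 267 bp at 6 h and 255 to 295 bp at 4 weeks, and both include those values. Peaks of exactly 199 bp, the narrowest in either list, made up 24.1% of 6 h peaks (19.4 to 29.3%) and 15.3% of 4-week peaks (10.6 to 21.1%) on chromosome 20, against 23.1% and 16.7% on chromosomes 1 to 19.

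Comparing the first 5 Mb with the rest of chromosome 20 at both times, the highest median width was that of 4-week peaks in the first 5 Mb. It was 303 bp (267 to 353 bp) against 262 bp in the rest of the chromosome (241 to 279 bp), and 37 of 52 (71.2%) were wider than the median of the whole 4-week list. The same part was 54.2% in the rest of chromosome 20 and 59.7% in the first 5 Mb of chromosomes 1 to 19. On chromosomes 1 to 19 the 4-week medians were 275 bp (264 to 287 bp) in the first 5 Mb and 258 bp (256 to 263 bp) outside it. At 6 h the medians on chromosome 20 were 262 bp (235 to 321 bp) in the first 5 Mb and 249 bp (234 to 268 bp) outside it. The intervals of the 2 zones overlap at both times.

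Shared and single-time peaks differed little in width on chromosome 20. The medians were 267 bp (219 to 369 bp) for shared and 249 bp (236 to 263 bp) for single-time peaks at 6 h, and 281 bp (259 to 340 bp) and 267 bp (249 to 295 bp) at 4 weeks. These differences of 18 and 14 bp lie within the intervals of the medians, and at 6 h the sign turned, to -45 bp, with a reciprocal overlap of 50%. On chromosomes 1 to 19 shared peaks were wider by 71 bp at 6 h (320 against 249 bp) and by 65 bp at 4 weeks (318 against 253 bp). The intervals of the shared medians on chromosome 20 include 320 and 318 bp, so a smaller difference on this chromosome was not established.

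Sharing by width class splits the same shared peaks that chromosome 20 was selected on, so higher shares than elsewhere follow in part from the selection. Of the 77 6 h peaks of 199 or 200 bp on chromosome 20, 12 were shared (15.6%, 8.32 to 25.6%), whereas on chromosomes 1 to 19 it was 67 of 1899 (3.53%, 2.74 to 4.46%). Of the 77 widest 6 h peaks, 333 bp and more, 18 were shared (23.4%, 14.5 to 34.4%), against 15.4% elsewhere. The narrowest class was the only 1 of 4 at 6 h in which the interval of chromosome 20 did not include the value elsewhere. Of the 11 pairs with a 6 h peak of exactly 199 bp, 4 lay in the first 5 Mb, which held 17 of all 47 pairs. At 4 weeks the narrowest class (199 to 216 bp) was shared in 18.0% (8.58 to 31.4%), against 9.97% (8.25 to 11.9%) elsewhere, and the widest class (361 bp and more) in 24.5% (13.3 to 38.9%), against 31.1% (27.9 to 34.4%). In the class from 273 to 360 bp it was 30.6% (18.3 to 45.4%), an interval just above the 17.4% elsewhere, and in the class from 217 to 272 bp it was 20.8% (10.5 to 35.0%), which includes the 12.6% elsewhere. The widest 4-week class was the only class at either time in which chromosome 20 had the lower share, and its interval included the value elsewhere.

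**Figure D4:**
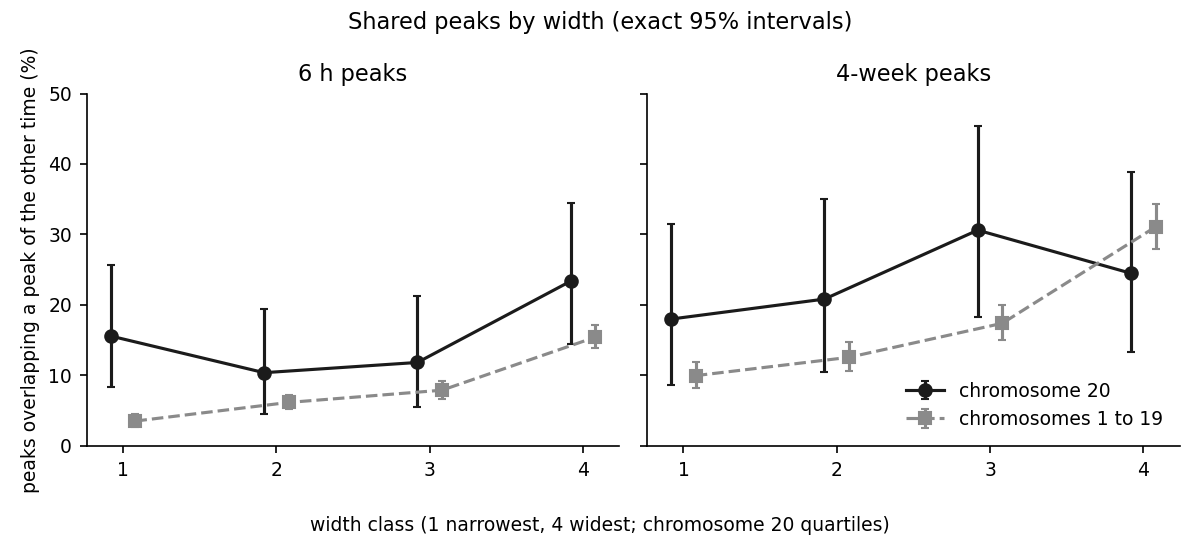
Part of 6 h peaks (left) and 4-week peaks (right) that overlap a peak of the other time, in percent, by width class from narrowest (1) to widest (4), with class bounds at the quartiles of chromosome 20. Black circles are chromosome 20 and grey squares are chromosomes 1 to 19, with exact 95% intervals; in the narrowest class at 6 h the shares are 15.6% and 3.53%.

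Most peaks of chromosome 20 were called at 1 time only, 260 at 6 h and 150 at 4 weeks. The 8 widest of these at 6 h were 591 to 775 bp wide, and 3 of them were in the first 5 Mb, at 2547252 to 2548026 (775 bp), 2295699 to 2296405 (707 bp) and 3631594 to 3632288 (695 bp). The others were at 72171077 to 72171843 (767 bp), 30357303 to 30358064 (762 bp), 59554282 to 59555034 (753 bp), 40765566 to 40766167 (602 bp) and 73924779 to 73925369 (591 bp). None of the 8 had a 4-week peak nearer than 14.6 kb. The first of these, at 2547252, lay 23.5 kb before the broad 4-week peak of 562 bp described above.

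The 8 widest single-time peaks at 4 weeks were 472 to 558 bp wide. Those at 4851263 to 4851735 (473 bp) and 8886527 to 8887008 (482 bp) had a 6 h peak 376 and 1348 bp away, the closest among the 8. Also near the start of the chromosome were those at 687677 to 688189 (513 bp) and 403767 to 404264 (498 bp). The remaining 4 were at 69412297 to 69412854 (558 bp), 53743215 to 53743737 (523 bp), 10273051 to 10273570 (520 bp) and 20899328 to 20899799 (472 bp), with the nearest 6 h peak 31.8 to 333 kb away.

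Most single-time peaks had no peak of the other time within 10 kb. Of the single-time 6 h peaks 28 of 260 had a 4-week peak within 10 kb (10.8%, 7.28 to 15.2%), against a background of 11.0% on chromosomes 1 to 20. Of the single-time 4-week peaks 26 of 150 had a 6 h peak within 10 kb (17.3%, 11.6 to 24.4%), against 16.8%. Chromosome 20 was thus close to the background in this measure at both times, although it was chosen for its shared peaks. Within 1 kb there were 12 of the single-time peaks of each list, a count not compared with other chromosomes. The median distance to the nearest peak of the other list was 94.1 kb for single-time 6 h peaks and 57.1 kb for single-time 4-week peaks. At distances of more than 500 kb there were 28 single-time 6 h peaks and 6 single-time 4-week peaks.

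Within each list, neighbouring peaks on chromosome 20 were a median of 104 kb apart at 6 h (quartiles 37.3 and 255 kb) and 149 kb apart at 4 weeks (quartiles 46.4 and 450 kb). The mean gaps were 244 and 383 kb, over 2 times the medians. Chromosomes 16 and 19, denser at 6 h, had median gaps of 87.3 and 82.8 kb at 6 h and 195 and 110 kb at 4 weeks.

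Close groups of 6 h peaks held a smaller part of the list than on chromosome 16, chromosome 19 or chromosomes 1 to 19 together. Groups of at least 3 peaks of one list with gaps of at most 10 kb numbered 3 at 6 h and held 11 peaks, or 3.58% (1.80 to 6.32%), against 10.2% (7.45 to 13.5%) on chromosome 16, 11.4% (8.24 to 15.2%) on chromosome 19 and 8.75% (8.14 to 9.40%) on chromosomes 1 to 19. Large groups weigh on the pooled value. Of the 694 grouped 6 h peaks on chromosomes 1 to 19, 363 lay in 36 groups of at least 5 peaks, the largest of 52. Other single chromosomes were not compared in this measure. The 3 groups of chromosome 20 were at 52186862 to 52204330 (4 peaks), 72171077 to 72182582 (4 peaks) and 51853003 to 51863203 (3 peaks). None of their 11 peaks was shared, beside 15.3% of all 6 h peaks of the chromosome. The count of 0 has a limit of 3, so with 11 peaks it does not set these groups apart. No 4-week peak lay in any of them. The only such group at 4 weeks was at 28206999 to 28211936, where 3 peaks lay within 4.94 kb and 1 was shared. Its 3 peaks were 1.53% of the 4-week list of the chromosome (0.317 to 4.41%), close to the 1.90% in groups on chromosomes 1 to 19. The dense first 5 Mb held no such group at either time. Gaps between the peaks of that stretch were not analysed here. At either time no group on chromosome 20 reached 5 peaks, and the same held for chromosome 19, while chromosome 16 had 3 such groups at 6 h.

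The rows of both lists are not in order of position, and the sources used here do not state what orders them. The first 3 rows of chromosome 20 were the same 3 sites in both lists. A site at 65757251 to 65757515 (265 bp at 6 h) and 65757270 to 65757490 (221 bp at 4 weeks) was row 38 of 13351 at 6 h and row 15 of 7399 at 4 weeks. A second, at 30213401 to 30213625 and 30213419 to 30213634 (225 and 216 bp), was in rows 97 and 66. The third, at 23854592 to 23854960 and 23854590 to 23854889 (369 and 300 bp), was in rows 28 and 79. The next row of chromosome 20 was row 1570 at 6 h and row 283 at 4 weeks, and neither of these peaks was shared. At 6 h the third site was wider than the upper quartile of the chromosome (333 bp), and the other widths lay within the quartiles of their time. The paired centres of the 3 sites were 3 to 36.5 bp apart.

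Shared peaks stood earlier in the 6 h list. Of the chromosome 20 peaks in its first 20% of rows 6 of 20 were shared (30.0%, 11.9 to 54.3%) and in the next 20% 18 of 58 (31.0%, 19.5 to 44.5%), falling to 3 of 65 in the last 20% (4.62%, 0.962 to 12.9%). On chromosomes 1 to 19 the corresponding values were 17.9%, 11.3% and 4.06%. At 4 weeks 9 of 18 were shared in the first 20% of rows (50%, 26.0 to 74.0%) and 8 of 39 in the last (20.5%, 9.30 to 36.5%), against 36.5% and 12.9% on chromosomes 1 to 19. The 4-week share did not fall steadily. It was lowest in the fourth 20%, with 6 of 49 (12.2%, 4.63 to 24.8%), against 10.1% on chromosomes 1 to 19. In the second 20% of the 6 h rows the interval of chromosome 20 lay above the value of the others, and in the last 20% it included it. Because the runs of rows split the shared peaks that chromosome 20 was selected on, higher shares than elsewhere follow in part from the selection. They are given as description only.

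**Figure D5:**
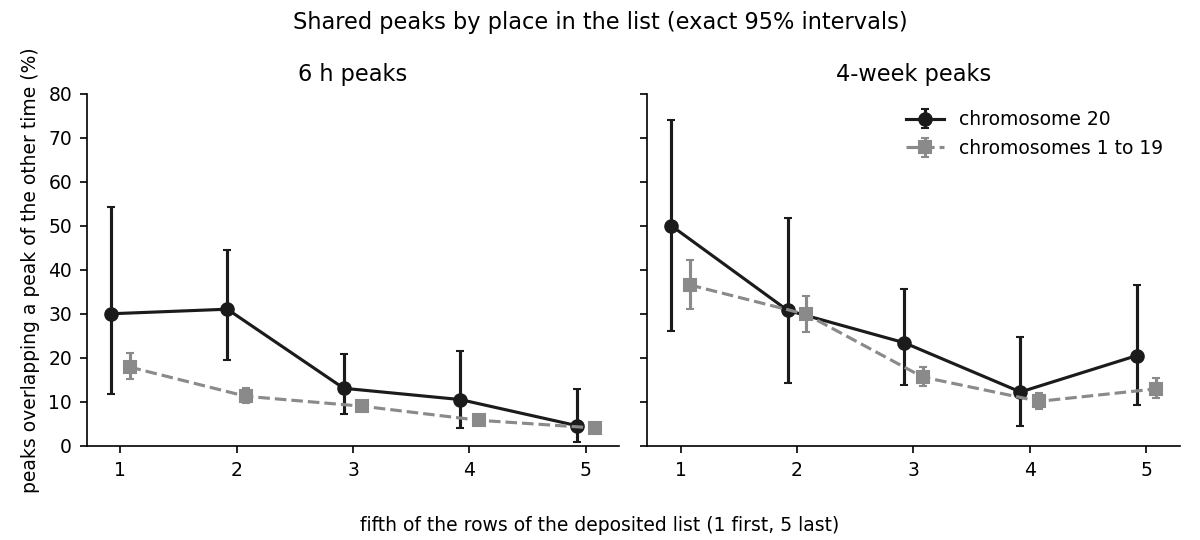
Part of 6 h peaks (left) and 4-week peaks (right) that overlap a peak of the other time, in percent, by place in the deposited list, cut into 5 equal runs of rows in file order. Black circles are chromosome 20 and grey squares are chromosomes 1 to 19, with exact 95% intervals; at 6 h the share on chromosome 20 goes from 30.0% in the first run to 4.62% in the last.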

How the data were processed

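ChIP and input libraries of infarcted rhesus heart at 6 h and 4 weeks were grouped by their titles. The 2 files deposited by the authors are peak lists with sequence name, start and end, and no score, height or p-value; each was called on a ChIP library against the input of its time point, per the file names. Bowtie2 2.0 and MACS2 are named as the tools, per the submitters' processing notes. The genome build, the MACS2 version, the settings and any pooling were not given in the sources used here. Read depth is unknown, and peak numbers are not corrected for it.

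Starts were read as counted from 0, as in the BED format, and printed counted from 1; if they were counted from 1, each width is 1 bp larger. Overlap was computed with numpy 2.4.6 and pandas 2.3.3 under Python 3.11.15, intervals with scipy 1.17.1, and overlap counts were checked against bedtools 2.31.1. Shares have exact Clopper-Pearson 95% intervals, and medians have order-statistic 95% intervals; no test was made. A count of 0 is given a limit of 3 counts. Windows assign peaks by midpoint. Named were the 12 pairs of largest summed width, the 8 widest single-time peaks of each list, the 6 richest 1 Mb windows, the 5 longest empty stretches and all groups of at least 3 peaks. The members and lists were chosen with earlier results of these data known. On simulated lists of the size of chromosome 20, built so that only planted pairs overlap, all 50 planted shared peaks were recovered. All 10 groups planted in a separate list without other peaks were found. These runs check the code and not how the measures behave at the density of the data. The gene table of T2T-MMU8v2.0 was used for names and neighbours only. Response elements and nearest genes were not analysed here.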

Additional observations from a re-analysis of the deposited data

How the results depend on the processing

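Of 47 alternative values over 15 results, 27 stayed within the 95% interval of the reported value, 19 moved outside it and 1 changed sign. The 4-week part of chromosome 20 peaks was 44.5% in the widest 50% of each list and 33.5% in the first 50% of the rows, against 36.4% and 30.9% on chromosomes 1 to 19. With a reciprocal overlap of 50%, 24 peaks of each list stayed shared, 7.82% at 6 h and 12.2% at 4 weeks (4.29% and 8.71% on chromosomes 1 to 19), and 13.5% of 4-week peaks in the first 5 Mb. It also turned the width difference of shared and single-time 6 h peaks from 18 to -45 bp, with limits that include 0 in both cases; the cause was not tested. In the widest 50% of each list 15.4% of 4-week peaks were shared, close to the 15.1% on chromosomes 1 to 19, and 15.8% in the first 5 Mb. With both partners required to be among the widest 50%, the excess of chromosome 20 at 4 weeks was thus not seen. By construction, median widths without the narrowest peaks were 289 bp at 6 h and 296 bp at 4 weeks, and the 6 h median gap among the widest 50% was 166 kb. Other distances also moved values by construction: within 2 and 10 Mb of an end lay 12.1% and 37.5% of 6 h peaks and 19.4% and 46.9% of 4-week peaks, against 29.0% and 37.2% within 5 Mb, which became 44.4% at 4 weeks in the widest 50%. Single-time 6 h peaks had a 4-week peak within 2 and 50 kb in 5.38% and 34.6%, and single-time 4-week peaks a 6 h peak in 8.67% and 46.7%. Results on the first 5 Mb, the first 50% of rows and peaks above the narrowest width were added after seeing the data. A window of 100 bp around peak centres for response elements was not run, for want of a genome. No paired analysis was possible because there is only 1 ChIP library at each time. Read depth was not known, and how many peaks were missed at either time cannot be said.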
